A study of Mus musculus with 12 samples.

Results

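The genes described here are the nuclear-encoded subunits of the 5 complexes of oxidative phosphorylation, chosen by gene symbol alone (Ndufa, Ndufb, Ndufc, Ndufs and Ndufv for complex I; Sdha to Sdhd for complex II; Uqcr for complex III; Cox4 to Cox8 for complex IV; Atp5 for complex V). Of 84 symbols in the table that carry these names, 2 were not protein-coding (Ndufb4c and Ndufb1-ps) and 1, Cox8b, had a mean of 8.56 normalized counts, under the limit of 10. The other 81 genes, of 19775 in the table, are the members: 35 in complex I, 4 in complex II, 8 in complex III, 17 in complex IV and 17 in complex V. Cox7a1, with a mean of 23.98 normalized counts, was the member nearest the limit. Ndufa4 and its relative Ndufa4l2 were placed in complex IV, where the NDUFA4 protein is now assigned, and Atp5s, which carries the family's symbol but is not a structural subunit of ATP synthase, was kept under complex V as the rule demands.

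RNA was measured in the whole brain of 12 male C57BL/6N mice at about postnatal day 120: 4 wild-type mice (WT), 4 Slc6a20a+/- mice (HT, heterozygous) and 4 Slc6a20a-/- mice (HM, homozygous). The mutant allele lacks exon 3 of Slc6a20a, which encodes a transporter of proline and glycine, in every cell of the body, and no other allele or treatment was given in the labels for any group. Slc6a20a itself had 679 ± 70.1 normalized counts in WT mice (mean ± SD, n = 4), 345 ± 29.1 in HT mice and 64.5 ± 9.9 in HM mice, in the order of the labels and with no overlap. None of the markers of neurons, astrocytes, oligodendrocytes and microglia that were looked up was at 0 throughout the 12 mice. In whole brain fewer cells of a type cannot be told apart from less RNA per cell.

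Oxidative phosphorylation couples the oxidation of NADH and succinate to the making of ATP. Complex I (NADH dehydrogenase) and complex II (succinate dehydrogenase) pass electrons to ubiquinone, complex III passes them on to cytochrome c, complex IV (cytochrome c oxidase) gives them to oxygen, and complex V (ATP synthase) uses the proton gradient built by complexes I, III and IV. Complexes I, III, IV and V combine subunits encoded in the nucleus with subunits encoded by mitochondrial DNA, whereas complex II is wholly nuclear-encoded; the brain relies on the pathway for most of its ATP.

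Nuclear respiratory factor 1 (NRF1), ETS proteins such as GABP (also called NRF2) and YY1 are known regulators of these genes, and the letters of their motifs were therefore looked up in the 250 bases before the RefSeq start site (GRCm38.p6), which were at hand for 66 of the 81 members. The NRF1 motif (GCGCA, then any base, then GCGC), on either strand, occurred in 12 of the 66 (18.2%), against 7.30% of 12642 genes of the table that averaged at least 10 normalized counts and 3.86% of all 27025 promoters. It occurred in 6 of 31 promoters of complex I, 2 of 3 of complex II, 0 of 5 of complex III, 1 of 12 of complex IV and 3 of 15 of complex V. The ETS motif CCGGAAGT occurred in 3 members (4.55%, against 5.19% of the genes of the table), and the YY1 motif ATGGCGGC in 1 (1.52%, against 1.65%). The following windows on the strand of the gene, one for a member of each complex I to IV and a second one for complex II, show the matched letters in capitals with up to 20 bases on each side.
Ndufb4, chr16:37654530-37654579, minus strand, NRF1 motif: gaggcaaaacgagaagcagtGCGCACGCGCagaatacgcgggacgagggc
Sdha, chr13:74350309-74350358, minus strand, NRF1 motif: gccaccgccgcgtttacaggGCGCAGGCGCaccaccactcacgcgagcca
Sdhd, chr9:50603899-50603948, minus strand, NRF1 motif: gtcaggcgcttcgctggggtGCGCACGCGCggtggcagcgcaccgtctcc
Uqcr11, chr10:80406860-80406907, minus strand, ETS motif: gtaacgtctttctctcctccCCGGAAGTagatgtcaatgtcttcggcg
Cox6a1, chr5:115349046-115349095, minus strand, NRF1 motif: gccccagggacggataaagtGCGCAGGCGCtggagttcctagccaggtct
Ndufb4 and Sdha each held 3 matches to the NRF1 motif and Cox6a1 held 2, whereas the promoters of Cox8a, Cox7a2, Cox7c, Atp5e and Atp5g1, which are described in detail further on, held none of the 3 motifs in this window. A match gives the letters only and was not tested as a binding site.

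Levels were compared between genes as the mean normalized count per kb of transcript, with the median length of a gene's annotated transcripts. Most members were abundant transcripts. The median over members was lowest in complex I, at 2202 normalized counts per kb, followed by 2399 in complex II, 3675 in complex III, 4100 in complex V and 5098 in complex IV. As the plot of levels shows, the range within complexes I, IV and V was far wider than the distance between the medians. In complex II (1171 to 4151 per kb) and complex III (2437 to 6157 per kb) the range was closer to that distance. The order of complexes thus describes the medians and not every member. Per-kb levels are uncertain for 9 members, Ndufb2, Ndufb8, Atp5g1, Uqcrq and Sdhc among them. Their median transcript length differs by more than 1.5 times from the length of the principal annotated transcript.

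**Figure D1:**
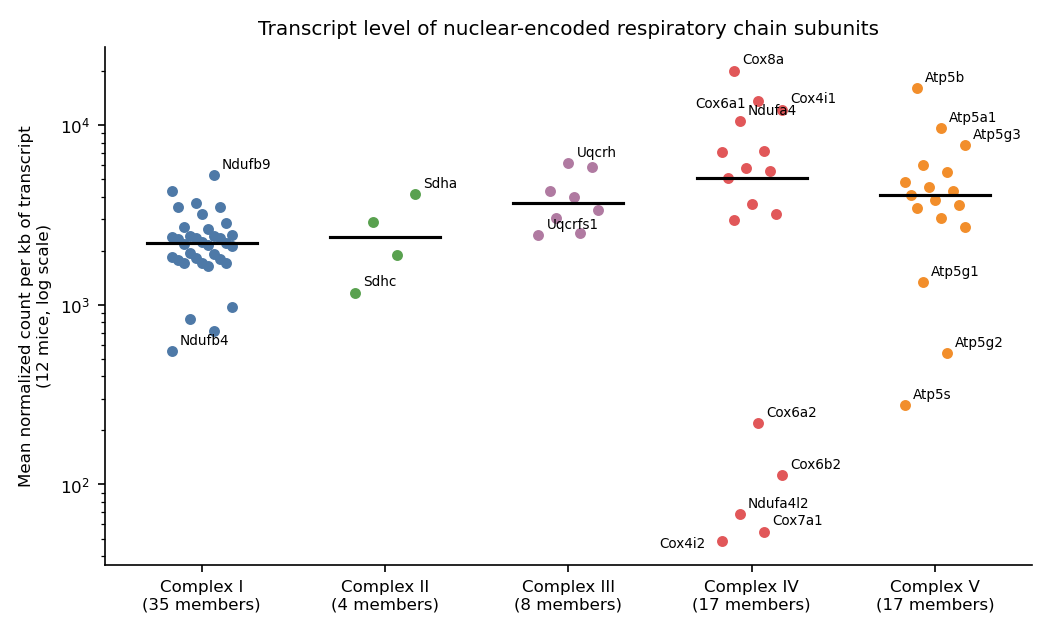
Mean normalized count per kb of transcript over the 12 mice (log scale) for each of the 81 members, grouped by complex; each point is a gene and each black line the median of the complex. Cox8a (20172 per kb) and Atp5b (16164 per kb) stand at the top, and the rare forms of complex IV subunits stand far below the other members of that complex.

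In complex I the highest member per kb was Ndufb9, an accessory subunit of the membrane arm (5272 per kb), and the lowest was Ndufb4, another accessory subunit of that arm (554 per kb). Reads of Ndufb4 may be shared with Ndufb4c, an annotated processed pseudogene of near-identical sequence that had a mean of 1049 normalized counts against 538 for Ndufb4, so the low level of Ndufb4 is uncertain. Of the core subunits that carry out catalysis, Ndufv1, which binds NADH and flavin, had 2701 per kb, and Ndufs1, which carries iron-sulfur clusters, had 1802. Ndufv2, Ndufs3, Ndufs7 and Ndufs8, also core subunits, had between 1779 and 2393 per kb.

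In complex II, Sdha, the flavoprotein that oxidizes succinate, ranged from 3974 to 4337 per kb over the 12 mice, and Sdhb, its iron-sulfur partner, from 2738 to 3327. The membrane anchors were lower, with Sdhd between 1748 and 2082 and Sdhc between 1108 and 1228 per kb. None of these 4 ranges overlapped, although the place of Sdhc rests on an uncertain length. In complex III, Uqcrh, the small hinge protein next to cytochrome c1, was highest (6157 per kb), and Uqcrfs1, the Rieske iron-sulfur protein that moves electrons to cytochrome c1, was lowest (2437 per kb) unless the length of the principal transcript is used for Uqcrq, which then had 1939 per kb in place of 5852, with the core proteins Uqcrc1 at 4322 and Uqcrc2 at 3059.

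Complex IV held both the highest and the lowest members of the whole set. Cox8a, a small subunit that stabilizes the complex, had 20172 per kb, Cox6a1 13582, Cox4i1, the regulatory subunit that binds ATP, 12242, and Ndufa4 10541. The forms known from heart, skeletal muscle, lung or testis were detected at low levels: Cox4i2 at 48.1, Cox7a1 at 54.6, Cox6b2 at 113 and Cox6a2 at 220 per kb. Ndufa4l2, the relative of Ndufa4, was also low, at 68.4 per kb. In each mouse the common form exceeded its rarer counterpart. The ratio per kb of Cox4i1 to Cox4i2 had a median of 269 (204 to 343 over the 12 mice), that of Ndufa4 to Ndufa4l2 143 (136 to 194), that of Cox7a2 to Cox7a1 68.5 (46.4 to 118), that of Cox6b1 to Cox6b2 64.1 (48.3 to 94.0) and that of Cox6a1 to Cox6a2 62.7 (46.5 to 88.7). The ranges of the 3 genotypes overlapped for each of these pairs.

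In complex V, Atp5b, the catalytic beta subunit of the F1 head, had 16164 per kb and Atp5a1, the alpha subunit that alternates with it in the head, 9623. The head holds both proteins in equal number, and the ratio of their transcripts per kb stayed between 1.55 and 1.74 over the 12 mice. The c ring, which turns with the proton flow, is built from 1 mature protein that 3 genes encode. Of these, Atp5g3 gave the most transcript (7749 per kb), 5.80 times Atp5g1 (median over mice, 5.55 to 6.15) and 14.6 times Atp5g2 (12.2 to 17.4). The ratio to Atp5g1 rests on an uncertain length of Atp5g1. Without division by length, the mean normalized counts were 5568 for Atp5g3 and 3588 for Atp5g1. The level of Atp5g2 is uncertain, since Gm10175, a gene of near-identical sequence, had a mean of 1958 normalized counts against 316 for Atp5g2. Atp5s was the lowest under this complex, at 276 per kb.

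Spread between WT mice was small for most members. The median coefficient of variation over the 4 WT mice was 8.0% in complex I, 4.3% in complex II, 5.6% in complex III, 8.0% in complex IV and 6.3% in complex V, and the highest, 41.1%, belonged to Cox7a1. WT replicate 1 had the highest value of all 12 mice in 69 of the 81 members, whereas it had the highest value in 14.9% of the 18006 genes that averaged at least 10. On average its members lay 0.18 above the 12-mouse mean on the log2 scale, and the other 11 mice lay between -0.045 and 0.029. The elevation ran through all complexes, with 0.23 in complex IV, 0.18 in complexes I and V, 0.14 in complex III and 0.087 in complex II, and the members took 0.928% of its normalized counts against 0.799% to 0.865% in the other mice.

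**Figure D2:**
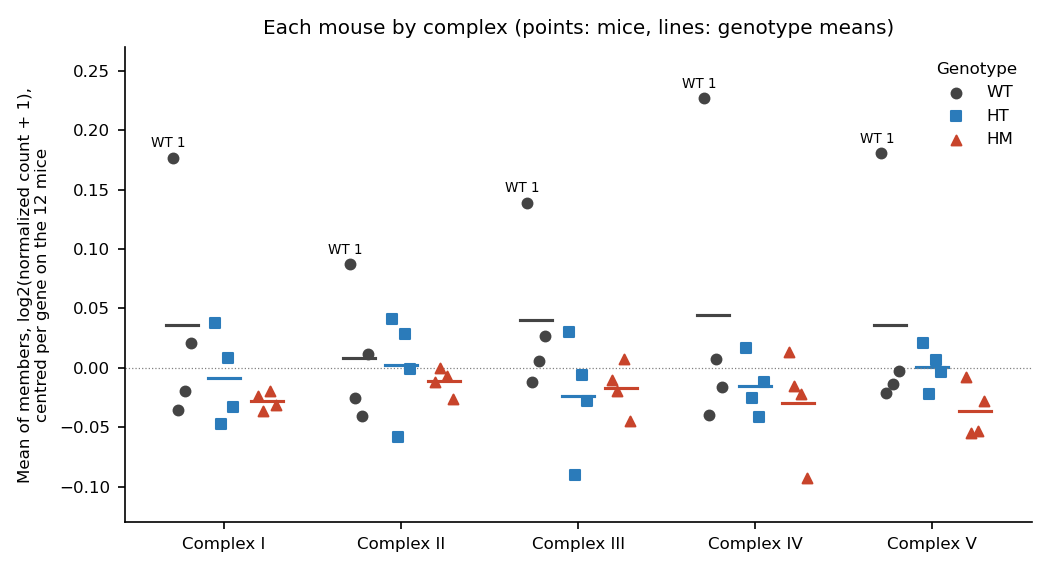
Mean over the members of each complex of log2(normalized count + 1), centred per gene on the 12 mice, for each mouse (points) with the mean of each genotype (lines). WT replicate 1, marked in each complex, lies above all other mice in every complex, while the other 3 WT mice lie among the HT and HM mice.

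Other values of WT replicate 1 moved with this elevation. Its deviations from the 12-mouse mean fell with transcript length across 17992 genes (Spearman's rho -0.34, across genes, which are not independent replicates), and in the other mice rho lay between -0.11 and 0.14. Members are short, with a median length of 742 bases against 2586 for all genes, and both the 82 cytosolic ribosomal proteins (0.19 above the mean) and the 78 mitochondrial ribosomal proteins (0.13) were also high in this mouse. Among cell type markers, its summed astrocyte markers were the lowest of the 12 mice (105119 normalized counts, against 109145 to 122688) and its oligodendrocyte markers the highest (204735, against 172079 to 203612), and its neuron markers (202353) lay within the range of the others (189507 to 208925). Their part in the results was not tested, and the counts at an unadjusted p under 0.05 over all members against WT are given with and without this mouse.

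The first question the design poses is whether loss of 1 or both copies of Slc6a20a goes with another level of respiratory chain transcripts. In HT against WT mice no member passed the test over all genes, but most members of complexes I, III, IV and V lay slightly below WT, by a few percent. The members with the smallest p were small accessory subunits: Cox8a and Cox7a2 in complex IV, Uqcr11 and Uqcr10 in complex III and Ndufb8 in complex I. A list of 16 subunits classed as core held members of complexes I, II, III and V, Uqcrc1, Uqcrc2, Sdhc and Sdhd among them, and none of complex IV. Of these 16 core subunits, 8 had log2 fold changes above 0, as did 9 of the other 65 members. Among the 8, Atp5a1 (0.084), Sdha (0.063) and Ndufs1 (0.046) lay furthest above 0, and 3, Atp5b, Ndufs3 and Uqcrc2, lay below 0 with quantile normalization. Without WT replicate 1, 39 of 81 members lay below 0 in place of 64, and 12 of the 16 core subunits and 30 of the other 65 members lay above 0.

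By limma, 0 of 81 members had a Benjamini-Hochberg (BH) adjusted p under 0.05 in HT against WT mice, where 0.00555% of the 18004 genes tested were called, and the lowest adjusted p of a member was 0.752. At an unadjusted p under 0.05, 8 members were lower (against 3.26% of all genes) and 0 higher (against 3.16%): 3 in complex I, 2 in complex III, 2 in complex IV and 1 in complex V. The median log2 fold change was -0.043 over all members and 5.1e-05 over all genes tested. By complex it was -0.031 in I, -0.0087 in II, -0.066 in III, -0.071 in IV and -0.042 in V. Members below 0 numbered 64 of 81, against 50% of all genes. Without WT replicate 1, 2 members were lower (against 3.4% of all genes), 2 were higher (against 2.65%), and the medians were 0.014, 0.022, -0.027, -0.012 and 4.9e-06 from complex I to V. When the values of every mouse were corrected for the length and GC content of transcripts, 1 member was lower (against 2.74%) and 0 were higher (against 3.51%), with medians between -0.018 and 0.020.

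Cox8a (ENSMUSG00000035885, chromosome 19, 7215153 to 7217616, GRCm38) had 12596, 11134, 11940 and 11954 normalized counts in the WT mice and 10346, 10632, 11098 and 10758 in the HT mice. The lowest WT mouse thus lay just above the highest HT mouse, so the genotypes did not overlap, and the log2 fold change was -0.15 (SE 0.04, limma, BH-adjusted p = 0.752). Cox7a2 (ENSMUSG00000032330, chromosome 9, 79755361 to 79759878), the ubiquitous form of a subunit at the dimer face of complex IV, had 2771, 2475, 2573 and 2574 normalized counts in the WT mice and 2450, 2288, 2317 and 2351 in HT mice. The genotypes were again apart by a narrow margin (log2 fold change -0.14, SE 0.05, limma, BH-adjusted p = 0.768). Cox8a and Cox7a2 were the 2 members whose genotypes did not overlap, as was so for 1.91% of all genes on the lower side. No member's HT mice all lay above the WT mice, as was so for 1.82% of all genes. Cox8a and Cox7a2 were also the 2 of 81 members that stayed lower at an unadjusted p under 0.05 without WT replicate 1, against 3.4% of all genes. With the correction for length and GC content Cox8a was not lower at that p (log2 fold change -0.068). Cox7a2 was just under it (log2 fold change -0.088, limma, unadjusted p = 0.0498).

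In complex III, the largest differences were in Uqcr11 and Uqcr10, small subunits beside the Rieske protein and cytochrome c1. Uqcr11 had 1711, 1583, 1475 and 1629 normalized counts in the WT mice and 1472, 1374, 1499 and 1485 in HT mice, so a single WT mouse lay within the HT range (log2 fold change -0.13, SE 0.06, limma, BH-adjusted p = 0.770). The core proteins Uqcrc1 and Uqcrc2 had log2 fold changes of -0.0063 and 0.011. In complex V, Atp5e, the epsilon subunit of the central stalk, lay between 1491 and 1825 normalized counts in the WT mice and between 1377 and 1618 in the HT mice, which overlapped (log2 fold change -0.15, SE 0.07, limma, BH-adjusted p = 0.770).

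The 10 B-group accessory subunits of the membrane arm of complex I had a median log2 fold change of -0.071 with 3 lower at an unadjusted p under 0.05 (Ndufb8, Ndufb11 and Ndufb2), its 12 A-group accessory subunits -0.021 with 0, and the core subunits of the NADH-oxidizing module, Ndufv1, Ndufv2 and Ndufs1, had a median of 0.034 with 0. When WT replicate 1 was left out, the B group had a median of -0.017 with 0 of 10 lower, where 3.4% of all genes were, and with the correction for length and GC content it had a median of -0.011 with 0 lower. Ndufb8, which had the smallest p, had 3559, 3044, 3062 and 3232 normalized counts in the WT mice and 2928, 2816, 3072 and 2993 in HT mice, overlapping at 1 HT mouse (log2 fold change -0.13, SE 0.05, limma, BH-adjusted p = 0.770). In complex IV, all 10 common isoforms lay below 0 (median -0.086, from -0.15 to -0.036), while of the 4 tissue-restricted isoforms 2 lay below 0. With WT replicate 1 left out, the median of the 10 was -0.039 and 9 lay below 0, and with the correction it was -0.028 and 7 did. Complex II had no member past an unadjusted p of 0.05, and Sdha, its member with the smallest p, had 11786 ± 251 normalized counts in the WT mice and 12310 ± 293 in HT mice (n = 4 each, log2 fold change 0.063, SE 0.04, limma, BH-adjusted p = 0.815).

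**Figure D3:**
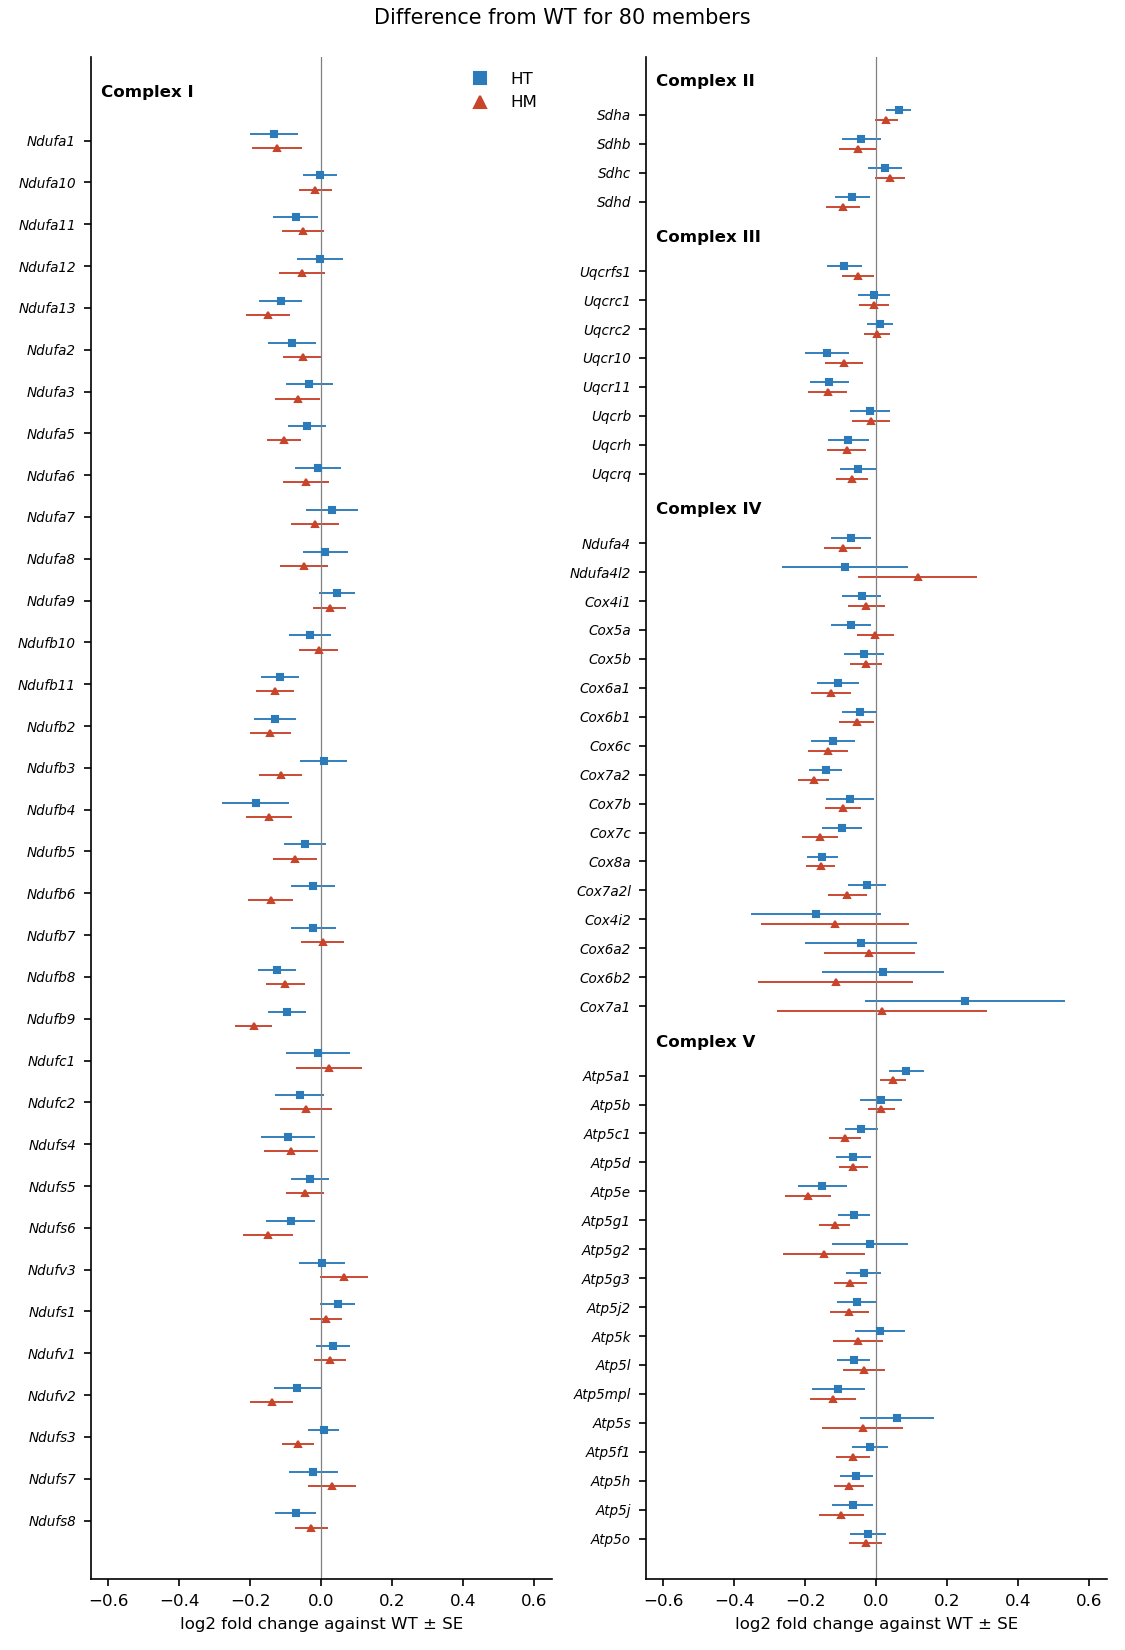
Log2 fold change of HT (squares) and HM (triangles) mice against WT for 80 of the members, with bars of 1 standard error; complex I on the left, complexes II to V on the right. Most points lie between -0.2 and 0.1, the bars of many cross 0, and the widest bars belong to the rare isoforms Cox7a1, Cox6b2, Cox4i2 and Ndufa4l2.

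In HM against WT mice the same 4 WT mice served as controls, so the 2 comparisons share any property of those mice. No member passed the test over all genes here either. The members with the smallest p were Cox7a2, Cox8a and Cox7c in complex IV, Ndufb9 in complex I, and Atp5e and Atp5g1 in complex V, with log2 fold changes from -0.19 to -0.12 and no overlap between the genotypes. These 6 members also had an unadjusted p under 0.05 without WT replicate 1, and no other member was lower without it. Of the 16 core subunits 8 had log2 fold changes above 0, as did 6 of the other 65 members, and 2 of the 8, Atp5b and Uqcrc2, lay below 0 with quantile normalization. Without WT replicate 1, 11 of the core subunits and 24 of the other 65 members lay above 0, and 46 of 81 members lay below 0 in place of 67.

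By limma, 0 of 81 members had a BH-adjusted p under 0.05, where 0.0111% of 18004 genes were called, and the lowest adjusted p of a member was 0.553. At an unadjusted p under 0.05, 16 members were lower (against 3.05% of all genes) and 0 higher (against 3.93%): 8 in complex I, 0 in complex II, 1 in complex III, 5 in complex IV and 2 in complex V. The median log2 fold change was -0.067 over all members and -2.9e-04 over all genes. By complex it was -0.054 in I, -0.011 in II, -0.060 in III, -0.094 in IV and -0.073 in V, and 67 of 81 members lay below 0, against 50.2% of all genes. Without WT replicate 1, 6 members were lower (against 3.16% of all genes) and 1, Atp5a1, was higher (against 3.52%), and the medians were -0.0038, 0.023, -0.025, -0.036 and -0.031 from complex I to V. With the correction for length and GC content 6 members were lower (against 2.81%), Cox7a2, Cox8a, Ndufb9, Ndufb2, Atp5e and Atp5g1, 0 were higher (against 3.5%), and the medians lay between -0.042 and 0.004.

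**Figure D4:**
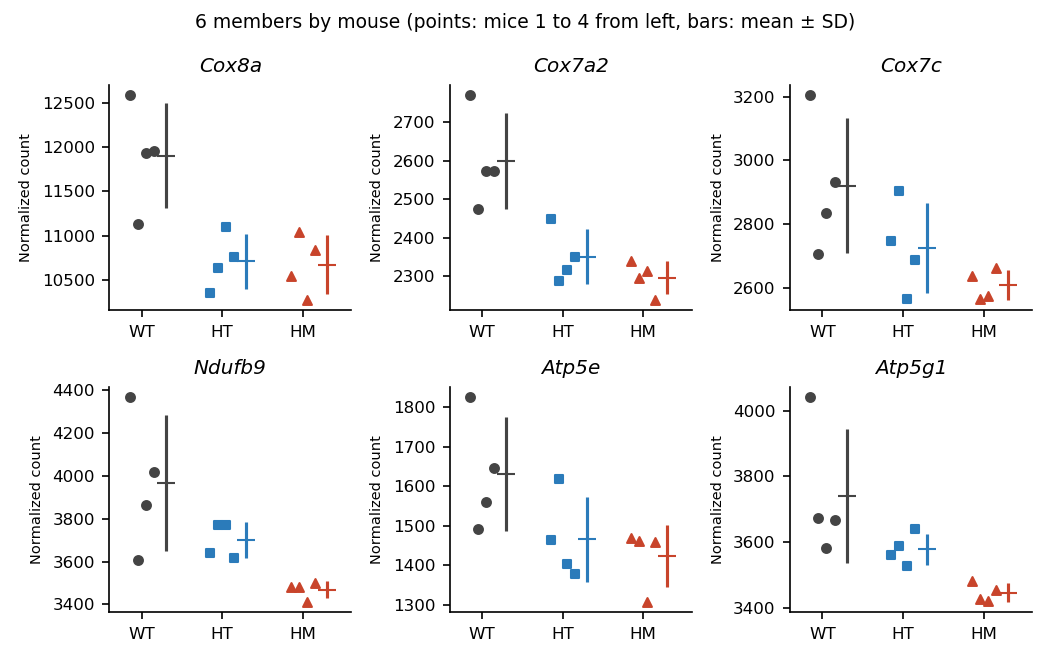
Normalized counts of 6 members in each mouse (points, replicates 1 to 4 from left to right in each genotype) with the mean ± SD of the genotype; vertical axes do not start at 0. WT replicate 1 is the highest mouse in each panel, and in each panel all HM mice lie below all WT mice.

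Of the complex IV subunits, Cox7a2 had 2340, 2296, 2314 and 2239 normalized counts in the HM mice, all below the lowest WT mouse at 2475 (log2 fold change -0.18, SE 0.04, limma, BH-adjusted p = 0.553). Cox8a had 10537, 11036, 10270 and 10838 in the HM mice, all below the lowest WT mouse at 11134 (log2 fold change -0.16, SE 0.04, limma, BH-adjusted p = 0.641). Cox7c, another small membrane subunit, had 3206, 2707, 2837 and 2933 in WT and 2639, 2567, 2576 and 2663 in HM mice, again apart by a narrow margin (log2 fold change -0.16, SE 0.05, limma, BH-adjusted p = 0.650). Cox7c is uncertain because 3 other genes have near-identical transcripts, 1 of which, Gm12338, is in the table with a mean of 245 normalized counts. In all, HM and WT mice did not overlap in 6 complex IV members, the others being Cox6c, Cox7b and Ndufa4, and in 9 of the 81 members on the lower side, against 1.81% of all genes, and in 0 on the higher side, against 2.41%. All 10 common isoforms lay below 0 (median -0.11, from -0.18 to -0.0032), with Cox5a (-0.0032), Cox5b (-0.028) and Cox4i1 (-0.029) closest to 0. With WT replicate 1 left out, the median of the 10 was -0.059, 7 lay below 0 and 3 were lower at an unadjusted p under 0.05 in place of 5, and with the correction the median was -0.058, 6 lay below 0 and 2 were lower.

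In complex I, Ndufb9 (ENSMUSG00000022354, chromosome 15, 58933756 to 58939488) had 4369, 3608, 3867 and 4017 normalized counts in WT mice and 3480, 3483, 3410 and 3500 in HM mice. All HM mice lay below all WT mice, and the spread among HM mice was small (log2 fold change -0.19, SE 0.05, limma, BH-adjusted p = 0.643). The B group as a whole had a median of -0.12 with 5 of 10 members lower at an unadjusted p under 0.05, the A group -0.052 with 2 of 12, and the core subunits of the NADH-oxidizing module 0.014 with 1 of 3, Ndufv2 (log2 fold change -0.14, SE 0.06, limma, BH-adjusted p = 0.700). When WT replicate 1 was left out, the B group had a median of -0.071 with 1 of 10 lower, Ndufb9, where 3.16% of all genes were, the A group 0.0057 with 0, and no core subunit was lower. With the correction the B group had a median of -0.078 with 2 lower, Ndufb2 and Ndufb9. The core subunits Ndufs3, Ndufs7 and Ndufs8 had log2 fold changes from -0.065 to 0.031 with 0 past an unadjusted p of 0.05.

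In complex V, Atp5e (ENSMUSG00000016252, chromosome 2, 174461072 to 174464105) had 1825, 1491, 1560 and 1646 normalized counts in the WT mice and 1468, 1462, 1307 and 1460 in HM mice, with a gap of few counts between the lowest WT and the highest HM mouse (log2 fold change -0.19, SE 0.07, limma, BH-adjusted p = 0.655). Atp5g1, 1 of the c ring genes, had 4043, 3672, 3582 and 3667 in WT and 3482, 3425, 3420 and 3453 in HM mice (log2 fold change -0.12, SE 0.04, limma, BH-adjusted p = 0.664). All HM mice were thus lower, with WT replicate 1 highest among the WT mice. The other c ring genes, Atp5g3 and Atp5g2, had log2 fold changes of -0.073 and -0.15 with overlapping genotypes. The alpha and beta subunits of the F1 head were not lower on average. Atp5a1 had 23999 ± 970 normalized counts in the WT mice and 24795 ± 499 in HM mice (log2 fold change 0.048, SE 0.04, limma, BH-adjusted p = 0.810), and Atp5b had 30745 ± 988 and 31054 ± 1145 (log2 fold change 0.014, or -0.0087 with quantile normalization).

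In complex II no member passed an unadjusted p of 0.05 in HM against WT mice, and the member with the smallest p was Sdhd, with 2413 ± 115 normalized counts in the WT mice and 2259 ± 77.4 in HM mice (log2 fold change -0.094, SE 0.05, limma, BH-adjusted p = 0.728). In complex III, Uqcr11 alone passed it (log2 fold change -0.14, SE 0.05, limma, BH-adjusted p = 0.670), with 1477, 1518, 1421 and 1394 normalized counts in the HM mice, of which 2 lay above the lowest WT mouse at 1475. The core proteins Uqcrc1 and Uqcrc2 had log2 fold changes of -0.0068 and 0.0023.

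The mutants were also compared with each other. In HM against HT mice 0 of 81 members had a BH-adjusted p under 0.05 by limma, where 0.00556% of 17986 genes were called. At an unadjusted p under 0.05, 3 members were lower in HM mice (against 1.62% of all genes) and 0 higher (against 2.11%), namely Ndufb9, Ndufb6 and Ndufb3, all from the B group of complex I. The median log2 fold change over all members was -0.016, and 55 of 81 lay below 0, against 50.5% of all genes. Ndufb9 had 3638, 3772, 3773 and 3619 normalized counts in the HT mice, above all HM mice. Ndufb6, Ndufb9 and Atp5g1 were the 3 members whose HM mice all lay below all HT mice, against 1.14% of all genes. Ndufa4l2 was the 1 member whose HM mice all lay above all HT mice, with 67.4 to 68.9 normalized counts in HM and 54.0 to 67.1 in HT mice, against 1.24% of all genes. WT replicate 1 had no part in this comparison, but the count of 3 lower members changed with the processing. It was 0 when all 12 mice were fitted together, and 1 to 4 on leaving out single mice (1 without HM replicate 2).

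**Figure D5:**
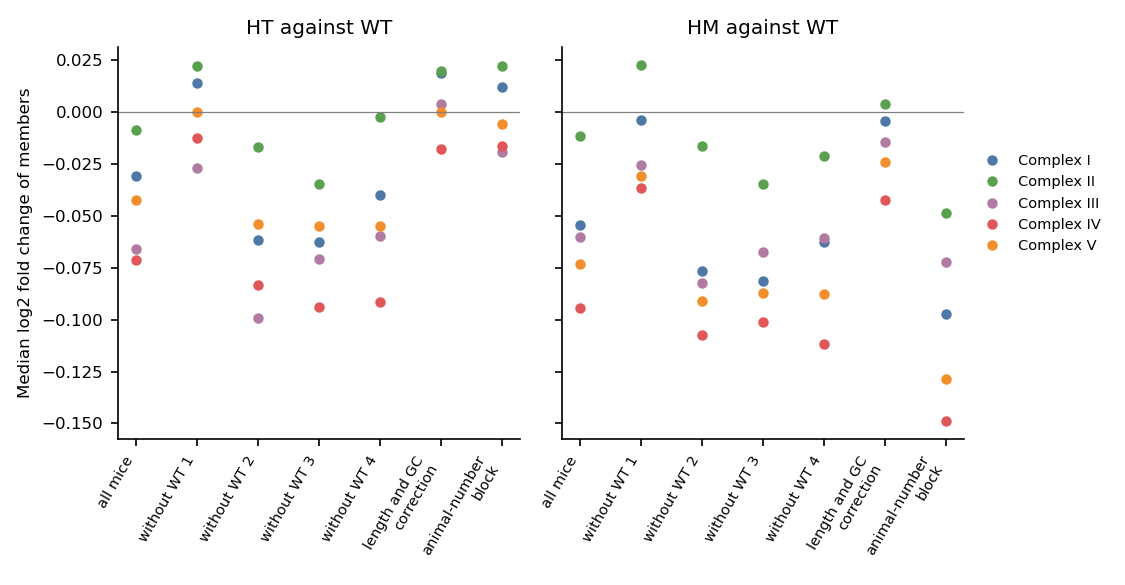
Median log2 fold change of the members of each complex against WT, for HT mice (left) and HM mice (right), with all mice, without each WT mouse in turn, after a correction for the length and GC content of transcripts, and with the start of the animal number as a block. Leaving out WT replicate 1 moves all medians toward or above 0, and leaving out any other WT mouse leaves all of them below 0.

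The dependence on WT replicate 1 and on transcript length was given by further values. Across all genes tested, log2 fold changes increased with transcript length in both comparisons with WT (Spearman's rho 0.21 for HT and 0.22 for HM) and hardly between HM and HT mice (rho 0.031). The short transcripts of cytosolic ribosomal proteins had medians of -0.080 in HT and -0.10 in HM mice, and those of mitochondrial ribosomal proteins -0.052 and -0.054. Sequence shared with other genes touched 23 members, which had another gene at 95% identity or more over at least 50% of the shorter transcript, 6 of them with such a gene in the table. Over the other 58 members the medians were -0.044 in HT and -0.052 in HM mice, with WT replicate 1 included and no correction for length. At an unadjusted p under 0.05, 6 (HT) and 9 (HM) of the 58 were lower, against 3.26% and 3.05% of all genes.

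Genes that work with the members were also compared by lists of known function. No gene of these lists had a BH-adjusted p under 0.05 in any comparison by limma, and counts below are at an unadjusted p under 0.05. Of the 13 subunits encoded by mitochondrial DNA, 3 were lower in HT mice (mt-Co2, mt-Co3 and mt-Atp6), against 3.26% of all genes. In HM mice 1, mt-Co3, was lower, against 3.05% of all genes. Higher in HM than in HT mice were mt-Co2 and mt-Atp6, against 2.11% of all genes. Of 4 subunits or partners that the symbols miss, Cyc1, Ndufab1, Atpif1 and Usmg5, only Usmg5, a small membrane subunit of ATP synthase, was lower in both mutants, with log2 fold changes of -0.26 (SE 0.07) in HT and -0.27 (SE 0.07) in HM mice. Of 13 enzymes of the TCA cycle, which feeds the chain, 0 were lower in either mutant. In both mutants 2 were higher, citrate synthase (Cs) and Ogdh of the oxoglutarate dehydrogenase complex, against 3.16% (HT) and 3.93% (HM) of all genes. Cs had log2 fold changes of 0.099 (SE 0.04) in HT and 0.13 (SE 0.03) in HM mice.

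Assembly factors build the complexes without being part of them. Of 20 factors for complex IV, 4 were lower in HT mice (Cox19, Cox14, Cox11 and Cox16), against 3.26% of all genes. In HM mice 2 were lower (Cox19 and Cox16), against 3.05% of all genes. Cox19, a copper-related factor, had log2 fold changes of -0.26 (SE 0.06) in HT and -0.25 (SE 0.06) in HM mice. Of 6 factors for complex III, 1, Uqcc2, which aids cytochrome b synthesis, was lower in both mutants (-0.17 and -0.24). None of the 17 factors for complex I, 4 for complex II and 4 for complex V, and none of 4 electron carriers, passed in any comparison. Of 12 regulators of respiratory genes, 1 was higher in HT than in WT mice (Ppargc1b), against 3.16% of all genes, and 0 differed between HM and WT. In HM against HT mice 1 was higher (Gabpb1), against 2.11% of all genes.

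Markers of the cell types that a whole brain holds gave the counts below, at an unadjusted p under 0.05. Over all genes, 3.26% were lower and 3.16% higher in HT than in WT mice. The shares were 3.05% lower and 3.93% higher in HM than in WT mice, and 1.62% lower and 2.11% higher in HM than in HT mice. Of 7 neuron markers, 1 was higher in HT (Gad2) and 1 in HM mice (Syt1). Of 6 astrocyte markers, 1 was higher in HT mice (Slc1a2). None of 6 oligodendrocyte markers passed. Of 6 microglia markers, 1 was lower in HM than in WT and 3 in HM than in HT mice. Of 6 mural cell markers, 2 were higher in HM than in WT and 2 in HM than in HT mice. Of 4 skeletal muscle markers tested, 0 differed from WT and 1 was lower in HM than in HT mice. All 5 erythrocyte markers were lower in HT mice, whose summed level lay between 6495 and 8717 normalized counts against 7780 to 21984 in WT and 5859 to 29023 in HM mice, and 4 were higher in HM than in HT mice. The part of these markers in the members' values was not tested.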

How the data were processed

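RNA of 12 whole mouse brains was sequenced by the authors (TruSeq libraries, paired reads of 100 bp). Per the labels and the study's methods, Salmon 1.1.0 assigned reads to GRCm38 transcripts, tximport summed them to genes and DESeq2 1.30.1 normalized them, while the sources differ on the R version. The deposited values are such normalized counts, a signal and not whole reads, so no count model was fitted, and their near-equal sums per mouse do not show depth, which is unknown here. Columns were assigned to mice by genotype and number.

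Genotypes were compared pairwise by limma 3.58.1 (R 4.3.3) on the 8 mice compared, after log2(normalized count + 1) and with a mean-dependent variance prior, for genes averaging at least 10, with BH adjustment over all genes (threshold 0.05). Fold changes on this scale understate those of low genes. Nothing in the labels says how the 4 mice of a genotype relate beyond being separate animals. GENCODE M21 supplied symbols, lengths and GC content (19758 of 19775 identifiers found), promoters from RefSeq (GRCm38.p6), near-identical transcripts from BLAST 2.17.0 (at least 95% identity, 150 aligned bases), and further steps used Python 3.11.15. The test was tested on simulated data. Lists besides the members were subunits encoded by mitochondrial DNA, subunits the symbols miss, assembly factors, electron carriers, TCA cycle enzymes, regulators and cell type markers. The members and lists were chosen with earlier results of these data known. Named with values were, in each complex, the members with the smallest p against WT and with the highest and lowest level, core subunits, isoform families, the 8 members with the smallest p in both comparisons, and up to 3 genes of each list. Uqcr10, Cox5a, Cox5b, Cox7c, Ndufb3, Ndufb6, the other members of counts of 5 or fewer or of groups that did not overlap, and Usmg5's list partners were named after their values were seen. The values of 1 member are not reported here, though it stays in the counts and medians. Alternatives were a pseudocount of 0.1 or 10, other filters, one fit of 12 mice, a block by replicate or animal number, a loess correction (span 0.4) for length and GC content, quantile normalization, no trend in the variance prior, leaving out each mouse, placing Ndufa4 and Ndufa4l2 in complex I, and, added after seeing the data, leaving out members with a near-identical gene.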

Additional observations from a re-analysis of the deposited data

Results flagged for a closer look

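Dixon's test at 95% was applied to the 4 mice of each genotype, for the mean of each complex and for each member named with values, and 10 of 156 groups held a mouse far from the other 3. Chance alone gives about 1 in 20 such groups. In 6 of the 10 the mouse was WT replicate 1, which was high: the mean of complex V (0.18 above the 12-mouse mean, log2 scale), Atp5g2 (417 normalized counts, against 295 to 307 in the other WT mice), Cox6c (5179), Cox7b (3391), Ndufa4 (5679) and Ndufv1 (4430). In HT mice, Cox5b was low in replicate 2 (3791 normalized counts). In HM mice, Atp5e was low in replicate 3 (1307 normalized counts), Atp5g3 was low in replicate 4 (5186) and Cox4i1 was high in replicate 2 (9737).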

How the results depend on the processing

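With 4 mice per genotype and a median standard error of 0.057 (HT against WT) and 0.054 (HM against WT) on the log2 scale, changes as small as the medians could not be called for single members, and no alternative run gave a member a BH-adjusted p under 0.05 (limma). The 8 (HT), 16 (HM) and 3 (HM against HT) members past an unadjusted p of 0.05 kept their sign in all 18 alternative fits of their comparison. In HT against WT mice, the members lower at that p numbered 2 with a block by the start of the animal number, 1 with the correction for length and GC content, 2 when the variance prior had no trend, and 2 to 16 on leaving out single mice (2 without WT replicate 1 or 4, 16 without WT replicate 2, 3 without HT replicate 4, 5 without HT replicate 2), and those higher numbered 1 with the animal-number block and 0 to 2 on leaving out single mice. In HM against WT mice 6 were lower with the correction, 9 when the prior had no trend, and 6 to 23 on leaving out single mice (6 without WT replicate 1, 9 without HM replicate 4, 10 without HM replicate 1 or 3), with 0 to 1 higher. In HM against HT mice 0 were lower in one fit of 12 mice, 1 with the animal-number block and 1 to 4 on leaving out single mice (1 without HM replicate 2), while 1 was higher when the prior had no trend and 0 to 1 on leaving out single mice. The medians of complexes I, II and III in HT mice moved above 0 with the correction, that of complex III to 0.0038. Of all 81 members, 24 (HT) and 6 (HM) changed sign with the animal-number block, 27 and 19 with the correction, 3 and 2 with quantile normalization, and 4 to 25 and 3 to 21 on leaving out single mice, most without WT replicate 1. The lists that follow hold only members named with values and are not complete. With the animal-number block the log2 fold change took the other sign for Atp5g2 (0.11), Atp5g3 (0.0062), Cox4i1 (0.024), Cox5b (0.011), Cox7a2l (0.027), Ndufa4l2 (0.017), Ndufb6 (0.039), Ndufs7 (0.034), Sdhb (0.011) and Uqcrc1 (0.020) in HT mice, and for Atp5b (-0.034), Cox7a1 (-0.48), Ndufs7 (-0.046) and Ndufv1 (-0.0022) in HM mice. With the correction the log2 fold change took the other sign for Atp5g2 (0.058), Atp5g3 (0.013), Cox4i1 (0.023), Cox5b (0.015), Cox6a2 (0.014), Cox6b1 (0.024), Cox7a2l (0.0056), Ndufa4 (0.0050), Ndufb6 (0.039), Ndufs7 (0.042) and Uqcrc1 (0.025) in HT mice, and for Atp5s (0.0035), Cox4i1 (0.021), Cox5a (0.051), Cox5b (0.021), Cox6a2 (0.032), Cox6b1 (0.0040), Ndufs8 (0.013) and Uqcrc1 (0.015) in HM mice. With quantile normalization the log2 fold change took the other sign for Atp5b (-0.0081), Ndufs3 (-0.0026) and Uqcrc2 (-0.011) in HT mice, and for Atp5b (-0.0087) and Uqcrc2 (-0.019) in HM mice. On leaving out single mice the sign was not kept in HT mice by Atp5g2 (-0.067 to 0.099), Atp5g3 (-0.062 to 0.0071), Cox4i1 (-0.070 to 0.011), Cox6a2 (-0.17 to 0.11), Cox7a2l (-0.065 to 0.023), Ndufa4l2 (-0.19 to 0.023), Ndufb6 (-0.059 to 0.030), Ndufs7 (-0.077 to 0.038), Sdhb (-0.081 to 0.013), Uqcrc1 (-0.027 to 0.029), Ndufb3 (-0.032 to 0.063), Ndufs3 (-0.010 to 0.030), Atp5b (-0.034 to 0.073), Cox6b2 (-0.065 to 0.094), Atp5s (-0.00046 to 0.17) and Cox5b (-0.061 to 0.019). On leaving out single mice the sign was not kept in HM mice by Atp5s (-0.11 to 0.073), Cox4i1 (-0.056 to 0.024), Cox5a (-0.034 to 0.051), Cox5b (-0.053 to 0.0058), Cox6a2 (-0.12 to 0.050), Ndufs8 (-0.046 to 0.0038), Sdhb (-0.090 to 0.0039), Uqcrc1 (-0.039 to 0.018), Cox7a1 (-0.17 to 0.25), Uqcrc2 (-0.014 to 0.021), Ndufs7 (-0.025 to 0.090), Ndufs1 (-0.012 to 0.041), Atp5b (-0.0040 to 0.034), Cox6b2 (-0.26 to 0.013) and Cox4i2 (-0.22 to 0.022). The animal-number block compares only mice that share a number start across genotypes, which leaves out WT replicate 1 in HT against WT mice and 4 of the 8 mice in HM against WT mice, and in HM against HT mice it rests on 1 HM mouse (replicate 4) and HT replicates 1 and 2. The cause of these changes was not tested.

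Replicate numbers did not pair the mice, since correlations of same-numbered mice lay between -0.076 and 0.098. With the replicate block 9 members were lower in HT, 12 in HM and 3 in HM against HT mice. Shares over all genes were computed only for the main fit, without WT replicate 1 and with the length and GC correction. The counts under the other settings therefore have no such share beside them. The pseudocounts, the filters and placing Ndufa4 and Ndufa4l2 in complex I changed no direction among these results.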
